A study of Homo sapiens with 8 samples.

Results

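Gene expression after UV-A light alone, with no photosensitive compound, was examined in 2 of the 8 libraries of a study of MDA-MB-231, a human cell line established from a triple-negative breast cancer. The libraries are the pair of the first of 2 rounds, taken by their labels and not by any measured value. The irradiated well had received 1% DMSO, the solvent vehicle, for 24 h and then 30 min of UV-A under 8 bulbs with an emission of 325 to 375 nm. The dark well had received the same solvent for the same time on a plate wrapped in foil. Both wells held 600000 cells at passage 8. Each condition had 1 library, so a difference carries no replicate check, and light cannot be told apart from plate or well. How long the cells were kept after irradiation before lysis is not stated. A second irradiated and dark pair, also at passage 8, had received 10 µM of 1-SO for 24 h. Its titles name no round, and it is counted with round 1 by its passage and its deposited gene table. The study used 1-SO, a triphenylphosphonium salt, as a light-activated compound. A vehicle pair of round 2, from cells at passage 32 to 34 and otherwise of the same description, is the only repeat of the vehicle comparison. The deposited gene tables of the rounds also differ, with 48162 genes in round 1 and 58676 in round 2.

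UV-A lies next to visible light and acts on cells largely through chromophores that pass its energy to oxygen, with little direct absorption by DNA. Cells are known to answer oxidants through NRF2, a transcription factor that turns on genes of glutathione, thioredoxin and iron storage. The aryl hydrocarbon receptor, AHR, is a ligand-activated factor for which a photoproduct of tryptophan is a known ligand, and CYP1A1 is its classical target. Immediate early genes such as FOS and EGR1 answer growth factor and stress kinases within minutes, and the interstitial collagenase MMP1 is a well-known late target of UV light in skin cells.

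The irradiated library held 15.8 M reads in genes and the dark one 18.8 M, and mitochondrial transcripts took 2.76% and 2.575% of them. Levels are given as FPKM, which scale reads by gene length and by library total, as the authors deposited them. A log2 ratio is that of UV-A over dark, of reads as a share of the library total with 0.5 reads added, over the 12225 genes with a mean of at least 1 FPKM in the pair. Its 95% counting interval holds the error of counting reads only. The cells carried the markers of the line. All 8 markers of MDA-MB-231, among them VIM, CD44 and AXL, passed the minimum with a summed level of 2052 FPKM under UV-A and 2327 FPKM in the dark. Of the 8 luminal markers 4 did not pass, ESR1, PGR, FOXA1 and CDH1, and 4 did. KRT19 stood at 233 FPKM under UV-A and 242 FPKM in the dark, and EPCAM, GATA3 and ERBB3 stood between 1.24 and 5.57 FPKM in both. No immune marker passed, and their summed level was 1.04 FPKM under UV-A and 1.19 FPKM in the dark.

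Between UV-A and dark, 210 of 12225 genes (1.72%) differed by at least 2-fold. Of these, 121 genes (0.99%) were higher under UV-A and 89 (0.728%) were lower. Most were weakly expressed: 133 of the 210 had under 100 reads in the pair and 120 were not protein-coding. Among the 10987 protein-coding genes 44 (0.4%) were higher and 46 (0.419%) were lower. With the median-of-ratios scaling this split was 35 higher and 63 lower. The median over all genes was 0.07, and the median-of-ratios scaling lowered every log2 ratio by 0.07, so list medians below are read against the median of all genes. Of the 12225 genes 7311 lay above 0 and 4914 below, and counts of list members on either side are read against these. The same genes had 7235 above and 4990 below in the 1-SO pair. In round 2 11954 of them had a value, 5548 above and 6406 below. The minimum is set on the mean of the pair, so a gene can pass through the library where it is high and then has to differ. This was so for 62 of the 121 higher genes, which were under 1 FPKM in the dark, and for 41 of the 89 lower genes, which were under 1 FPKM under UV-A. The authors' deposited table gives 8 genes of 23188 (0.0345%) an adjusted p under 0.05, 3 higher (0.0129%) and 5 lower (0.0216%). The labels do not say how a p was reached from 1 library a side.

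**Figure D1:**
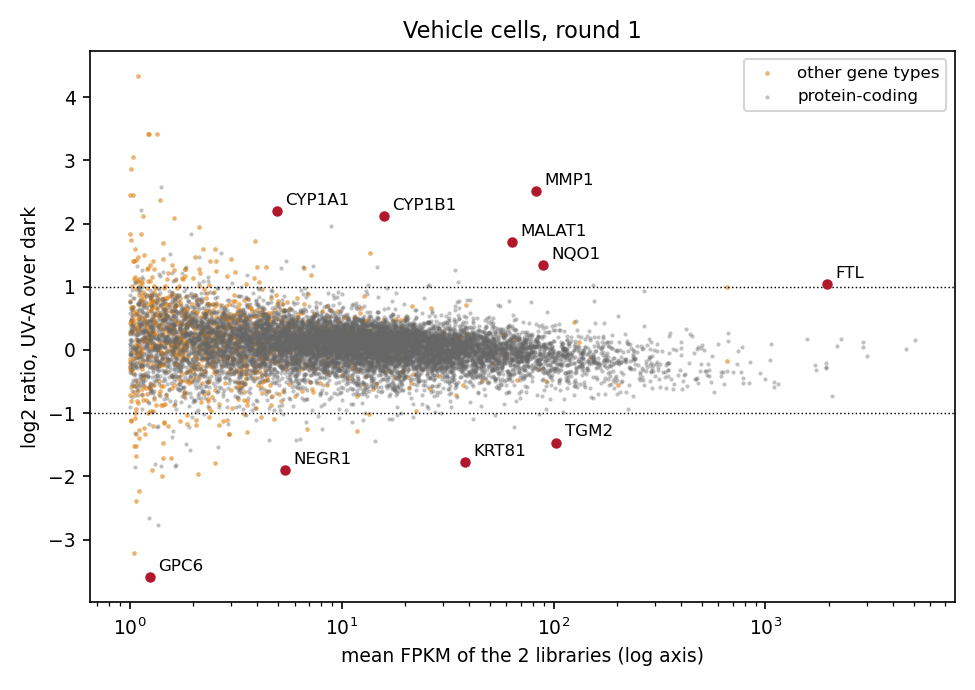
The log2 ratio of UV-A over dark (vertical axis) against the mean FPKM of the pair (horizontal, log axis) for each gene passing the minimum in vehicle cells of round 1, with protein-coding genes in grey, other gene types in orange and 10 named genes in red. The dotted lines mark 2-fold, and genes other than protein-coding ones spread widest at low levels.

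Among protein-coding genes with at least 100 reads in the pair, the highest under UV-A were MMP1 and the AHR targets CYP1A1 and CYP1B1. MMP1, whose product cuts fibrillar collagen, stood at 141 FPKM under UV-A and 24.7 FPKM in the dark, from 4384 and 914 reads (ENSG00000196611, hg19 chr11:102660651-102668891). Its log2 ratio was 2.51, with a counting interval of 2.41 to 2.62, or 5.70-fold. The authors' deposited table lists a log2 fold change of 2.43 with an adjusted p of 0.00053. MMP1 was also high in the irradiated 1-SO well, at 387 FPKM against 25.4 FPKM in its dark well. In round 2 it stood at 10.8 FPKM under UV-A and 12.04 FPKM in the dark, a log2 ratio of -0.16. Of these 3 pairs, UV-A was far above dark in both of round 1 and not in that of round 2.

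CYP1A1, a monooxygenase that oxidises aromatic hydrocarbons, stood at 8.15 FPKM under UV-A and 1.76 FPKM in the dark, from 346 and 89 reads (ENSG00000140465, hg19 chr15:75011883-75017951). The log2 ratio was 2.20, with a counting interval of 1.87 to 2.56. CYP1B1, a related monooxygenase that also hydroxylates estradiol, stood at 25.7 FPKM under UV-A and 5.91 FPKM in the dark (ENSG00000138061, hg19 chr2:38294116-38337044). Its log2 ratio was 2.12, with a counting interval of 1.99 to 2.25. The authors' deposited table gives the adjusted p as 0.0241 for CYP1A1 and 0.0205 for CYP1B1. In the 1-SO pair the log2 ratios were 1.37 for CYP1A1 and 2.60 for CYP1B1, and in round 2 they were 0.07 and -0.23.

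The AHR list had 8 members and 6 passed the minimum, since CYP1A2 and UGT1A6 did not. All 6 were above 0 and 5 were at least 2-fold higher, against 0.99% of all genes. With either other scaling TIPARP is under 2-fold and 4 are left. The list median was 1.21. NQO1, a quinone reductase shared with the NRF2 list, stood at 128 FPKM under UV-A and 50.7 FPKM in the dark, a log2 ratio of 1.34. TIPARP, an ADP-ribosyltransferase that restrains AHR, stood at 34.9 FPKM under UV-A and 17.1 FPKM in the dark, a log2 ratio of 1.03. AHRR, the repressor of AHR, had a log2 ratio of 0.87. ALDH3A1, an aldehyde dehydrogenase, had a log2 ratio of 1.09 on low levels, 3.18 FPKM under UV-A and 1.49 FPKM in the dark. It was the exception in the 1-SO pair, with a log2 ratio of -1.94.

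Because members of the AHR and NRF2 lists stood high together, the 250 bases before the start of the highest member of each list are shown, with TIPARP as a second AHR target and SERPINB2 as the highest protease-list gene that has an entry. The sequences are RefSeq promoters of build GRCh38.p14, read 5′ to 3′ on the gene's strand. Capitals mark GCGTG, the AHR core, in CYP1A1 and TIPARP, or its complement. NQO1 was searched for TGACNNNGC, a core of the antioxidant response element bound by NRF2, and SERPINB2 for the AP-1 letters TGAGTCA or TGACTCA, and each on both strands. MMP1 and CYP1B1 are named only.
CYP1A1: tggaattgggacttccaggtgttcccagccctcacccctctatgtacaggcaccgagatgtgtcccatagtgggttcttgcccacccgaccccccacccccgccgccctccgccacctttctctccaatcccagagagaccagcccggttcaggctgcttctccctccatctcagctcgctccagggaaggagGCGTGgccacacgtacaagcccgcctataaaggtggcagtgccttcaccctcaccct
TIPARP: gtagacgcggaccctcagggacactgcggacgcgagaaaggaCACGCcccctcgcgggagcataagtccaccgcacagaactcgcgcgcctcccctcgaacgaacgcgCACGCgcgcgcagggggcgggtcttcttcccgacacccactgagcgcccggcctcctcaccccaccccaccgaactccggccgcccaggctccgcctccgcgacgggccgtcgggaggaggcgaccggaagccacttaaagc
NQO1: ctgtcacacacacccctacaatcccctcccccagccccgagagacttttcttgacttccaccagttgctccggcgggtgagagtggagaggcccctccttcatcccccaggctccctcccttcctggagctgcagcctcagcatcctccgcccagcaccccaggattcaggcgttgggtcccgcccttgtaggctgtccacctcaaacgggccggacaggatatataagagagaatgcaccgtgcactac
SERPINB2: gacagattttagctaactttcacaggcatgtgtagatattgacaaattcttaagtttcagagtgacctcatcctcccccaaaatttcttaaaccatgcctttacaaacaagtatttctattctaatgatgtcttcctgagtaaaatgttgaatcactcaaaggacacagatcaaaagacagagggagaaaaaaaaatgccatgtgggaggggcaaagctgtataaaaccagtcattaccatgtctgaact
These windows are chr15:74725529-74725778 (minus strand) for CYP1A1, chr3:156674340-156674589 (plus strand) for TIPARP, chr16:69726561-69726810 (minus strand) for NQO1 and chr18:63887455-63887704 (plus strand) for SERPINB2. CYP1A1 held 1 AHR core, which began 57 bases before the start, and TIPARP held 2, which began 208 and 142 bases before it. NQO1 and SERPINB2 held no match to their letters in this window. NQO1, as a member of the AHR list, was also searched for GCGTG and held no match. Over the 35116 listed starts, 32.2% held GCGTG, 10.9% held the response element core and 4.2% held an AP-1 match. Of 10 starts of 6 AHR list members 5 held GCGTG, and of 23 starts of 19 NRF2 list members 6 held the response element core. The AP-1 letters and the response element core can overlap, since both hold TGAC. A match is a stretch of letters and no measured binding.

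NRF2 targets were higher as a group, most of them by less than 2-fold. Of 26 members 22 passed, 21 were above 0, 5 were at least 2-fold higher (0.99% of all genes) and none was 2-fold lower. With the scalings by TMM or by median of ratios FTL and FTH1 are under 2-fold and 3 are left, of which AKR1C1 passed through the UV-A library alone. The list median was 0.47 against 0.07 for all genes. SLC7A11, the cystine carrier that feeds glutathione synthesis, stood at 21.04 FPKM under UV-A and 8.44 FPKM in the dark, a log2 ratio of 1.32. The ferritin light chain FTL stood at 2622 FPKM under UV-A and 1272 FPKM in the dark, and its log2 ratio of 1.04 rests on the highest level in the list. The ferritin heavy chain FTH1 had a log2 ratio of 1.02. Reads of ferritin genes can be shared with their many pseudogenes, so their levels are uncertain. TXNRD1, thioredoxin reductase, stood at 350 FPKM under UV-A and 182 FPKM in the dark, a log2 ratio of 0.94. AKR1C1, a ketosteroid reductase, had a log2 ratio of 1.27 on 1.61 FPKM under UV-A and 0.667 FPKM in the dark, and near-identical paralogs make it uncertain. HMOX1, heme oxygenase, and GCLC, the catalytic subunit of glutathione synthesis, were nearer to the rest at 0.45 and 0.43. Genes of the pentose phosphate pathway in the list were near 0, with TKT at 0.03 and PGD at 0.00.

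Antioxidant enzymes outside that list did not share the direction. Of 20 members 19 passed, 3 were above 0, none was 2-fold changed (1.72% of all genes), and the median was -0.22. Peroxiredoxin PRDX1 was the highest, at 470 FPKM under UV-A and 373 FPKM in the dark. The glutathione peroxidase GPX1 stood at 112 FPKM under UV-A and 187 FPKM in the dark, a log2 ratio of -0.74, and the methionine sulfoxide reductase MSRA had -0.86.

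**Figure D2:**
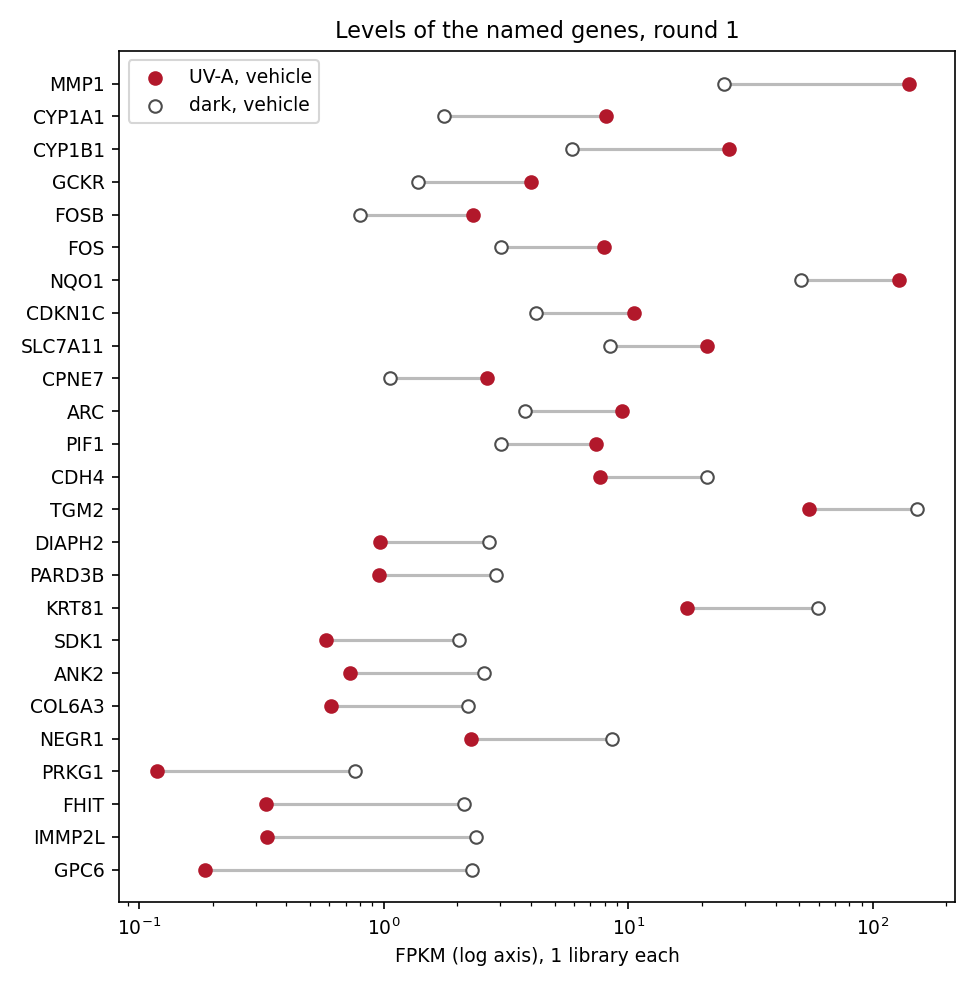
FPKM (log axis) of genes that the text names by rank or by the authors' adjusted p in the UV-A library (filled red) and the dark library (open grey) of vehicle cells, round 1. MMP1 and the CYP1 genes have UV-A far right of dark, and GPC6 at the bottom has the widest gap the other way, 0.186 FPKM under UV-A and 2.3 FPKM in the dark.

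Immediate early genes divided. Of 26 members 21 passed, 4 were at least 2-fold higher (0.99% of all genes) and 17 were not, with a list median of 0.08, close to that of all genes. FOS, an AP-1 subunit, stood at 7.97 FPKM under UV-A and 3.01 FPKM in the dark, and EGR1, a zinc finger factor, at 48.2 FPKM under UV-A and 20.1 FPKM in the dark. Their log2 ratios were 1.40 and 1.26. FOSB, a relative of FOS, had 1.52 but passed through the UV-A library alone, at 2.31 FPKM under UV-A and 0.803 FPKM in the dark, and ARC, best known from synapses, had 1.31. FOSL1, the member of the FOS family with the highest level here, stood at 239 FPKM under UV-A and 241 FPKM in the dark. JUN, the partner of FOS, stood at 48.5 FPKM under UV-A and 62.2 FPKM in the dark, with a log2 ratio of -0.36. In round 2 FOS had a log2 ratio of 0.50, with a counting interval of 0.27 to 0.74, and FOSB had 0.05, with an interval of -0.38 to 0.49.

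Secreted proteases other than MMP1 showed no common direction. Of 22 members 16 passed, 7 were above 0, 2 were at least 2-fold higher (0.99% of all genes) and the median was -0.17. The second was SERPINB2, an inhibitor of plasminogen activators, with 64 reads under UV-A and 16 in the dark. It passed through the UV-A library alone, with 1.88 FPKM under UV-A and 0.395 FPKM in the dark. Urokinase, PLAU, stood at 74.7 FPKM under UV-A and 147 FPKM in the dark, a log2 ratio of -0.98. The other matrix metalloproteinases that passed, MMP10, MMP14 and MMP15, lay between -0.16 and 0.21.

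Other genes at the high end belonged to no list. GCKR, the regulator of glucokinase, stood at 4.02 FPKM under UV-A and 1.39 FPKM in the dark, but its log2 ratio in round 2 was -0.99. CDKN1C, an inhibitor of cyclin-dependent kinases, stood at 10.5 FPKM under UV-A and 4.18 FPKM in the dark. PIF1, a DNA helicase, stood at 7.37 FPKM under UV-A and 3.01 FPKM in the dark. CPNE7, a calcium-dependent membrane-binding protein, stood at 2.64 FPKM under UV-A and 1.06 FPKM in the dark, and was the only one of the 12 highest genes to be at least 2-fold higher in round 2 also. Of those 12 genes 6 were above 0 in round 2 and 11 in the 1-SO pair.

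MALAT1, an abundant nuclear non-coding RNA that was singled out after its values were seen, stood at 97.6 FPKM under UV-A and 30.0 FPKM in the dark, a log2 ratio of 1.70. In the 1-SO pair of the same round it stood at 47.8 FPKM under UV-A and 55.6 FPKM in the dark. The irradiated vehicle library of round 1 was thus the highest and its dark partner the lowest of the 4 libraries of that round. In round 2 MALAT1 stood at 48.6 FPKM under UV-A and 53.8 FPKM in the dark.

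At the low end stood very long genes. GPC6, a cell-surface heparan sulfate proteoglycan, stood at 0.186 FPKM under UV-A and 2.3 FPKM in the dark, from 19 and 280 reads, and spans 1181 kb (ENSG00000183098, hg19 chr13:93879095-95059655). Its log2 ratio was -3.60, with a counting interval of -4.39 to -2.96. NEGR1, a cell adhesion molecule of 880 kb, stood at 2.29 FPKM under UV-A and 8.58 FPKM in the dark, from 210 and 937 reads, and its log2 ratio was -1.91 (hg19 chr1:71868625-72748417). FHIT, a diadenosine triphosphate hydrolase at a common fragile site, spans 1502 kb and had a log2 ratio of -2.66 on 16 reads under UV-A and 123 in the dark (hg19 chr3:59735036-61237133). IMMP2L, a mitochondrial inner membrane peptidase of 899 kb, had -2.76 on 8 reads under UV-A and 68 in the dark. PRKG1, a cGMP-dependent kinase of 1307 kb, had -2.63 but missed the level minimum. These 5 are the genes that the authors' deposited table calls lower, with adjusted p-values of 2.47e-07 for GPC6, 0.0399 for NEGR1, 0.00823 for FHIT, 0.0468 for IMMP2L and 0.02 for PRKG1.

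The 12 lowest protein-coding genes with at least 100 reads in the pair had a median span of 895 kb, while the 12 highest had one of 9.14 kb. Of the lowest 12, 9 spanned at least 300 kb, and of the highest 12, 0 did. Among all protein-coding genes that passed, 3.01% span at least 300 kb. Besides GPC6, FHIT and NEGR1 these included the membrane adaptor ANK2, the adhesion molecules SDK1 and CDH4, the polarity protein PARD3B and the formin DIAPH2. Their log2 ratios lay between -1.83 for ANK2 and -1.44 for CDH4. CDH4 had the most reads of the 9, 792 under UV-A and 2562 in the dark. The remaining 3 of the lowest 12 were shorter: COL6A3, KRT81 and TGM2. Of the 12, 8 were under 1 FPKM under UV-A.

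Across all protein-coding genes the median log2 ratio changed with genomic span, a pattern looked for after the values were seen. It was -0.04 for the 2076 genes under 10 kb, 0.13 for the 1356 genes of 100 to 200 kb and -0.01 for the 223 genes of 300 to 500 kb. It was -0.22 for the 62 genes of 500 to 700 kb and -0.41 for the 46 genes of at least 700 kb. At least 2-fold lower were 10 of those 46 genes (21.7%) and 6 of the 62 (9.68%), against 0.419% of all protein-coding genes, and none of these 108 genes was 2-fold higher. These counts are a description, since 8 of the 10 and 3 of the 6 were under 1 FPKM under UV-A and passed through the dark library alone, as did 16 of the 46 lower protein-coding genes of any span. The direction was not shared by every long gene: 74 of the 108 lay below 0, while the factor RUNX1, with a span of 1197 kb, had 0.34. Genes of the longest class also had lower levels, with a median of 3.87 FPKM against 14.5 FPKM under 10 kb, and longer transcripts. Of the 108 genes, the 57 with a mean of 1 to 5 FPKM had a median of -0.41 and the 2656 shorter genes of that level 0.15. The 51 long genes of higher level had 0.00 and the 8223 shorter ones 0.04, so the medians parted among weakly expressed genes. At the higher level 4 of the 51 long genes (7.84%) were still 2-fold lower, NEGR1, CDH4, EXOC4 and GMDS, against 0.219% of the shorter ones. The part of level in this pattern was not tested beyond that division.

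In the 1-SO pair the same bins of span parted further, with medians of -0.65 for 500 to 700 kb and -0.90 for at least 700 kb. In round 2 these medians were -0.04 and -0.11. All 12 of the lowest genes of the vehicle pair were below 0 in the 1-SO pair. In round 2 11 of them were below 0, as were 6406 of the 11954 genes with a value there. None of the 12 was 2-fold lower in round 2.

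**Figure D3:**
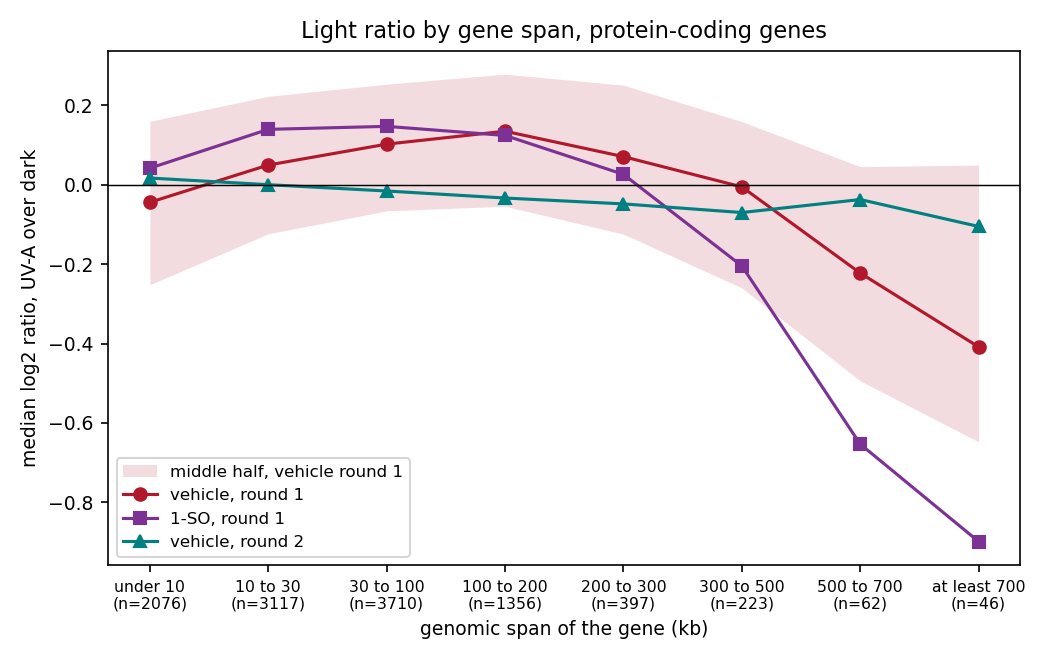
Median log2 ratio of UV-A over dark (vertical axis) of protein-coding genes in bins of genomic span (horizontal axis, kb, with the number of genes), for the vehicle pair of round 1 (red, with the range between its quartiles shaded), the 1-SO pair of round 1 (purple) and the vehicle pair of round 2 (teal). Both round 1 lines drop in the longest bins, to -0.41 and -0.90, and the round 2 line stays near 0.

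Genes of DNA replication and of mitosis stood on opposite sides. All 45 replication genes passed and all 45 were below 0, with a median of -0.59 and a range of -1.17 to -0.18. At least 2-fold lower were 4 (0.728% of all genes): E2F2 and E2F1, activators of S phase genes, GINS2, of the replicative helicase, and MCM7, another helicase subunit. With either other scaling 6 were 2-fold lower. E2F1 stood at 34.6 FPKM under UV-A and 71.0 FPKM in the dark, and MCM7 at 56.6 FPKM under UV-A and 114 FPKM in the dark. Of 40 mitosis genes 37 were above 0 and the median was 0.41. At least 2-fold higher were 3 (0.99% of all genes), the mitotic kinesins KIF20A and CENPE and the centrosomal kinase NEK2, with log2 ratios of 1.08, 1.03 and 1.02. With the scalings by TMM or by median of ratios CENPE and NEK2 are under 2-fold and only KIF20A is left. KIF20A stood at 48.2 FPKM under UV-A and 22.9 FPKM in the dark. CDK1, the kinase that drives entry into mitosis, stood at 58.4 FPKM under UV-A and 59.3 FPKM in the dark, and BIRC5, survivin, had a log2 ratio of -0.33.

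The histone list also stood high, with 11 of 12 passing members above 0 and a median of 0.57. None was 2-fold changed (1.72% of all genes). HIST1H2BD stood at 51.4 FPKM under UV-A and 29.7 FPKM in the dark. Poly-A selection catches these mostly unpolyadenylated transcripts in part, and their copies are near identical, so their levels are uncertain. The member below 0 was H1F0, a linker histone made outside S phase. In bulk RNA, fewer cells in a phase and less RNA per cell cannot be told apart.

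These lists differed in the other pairs. Replication genes had a median of -1.19 in the 1-SO pair, where all 45 were below 0, and of 0.14 in round 2, where 39 were above 0. Mitosis genes had a median of -0.47 in the 1-SO pair, with 5 above 0, and of 0.15 in round 2, with 38 above 0. Replication thus lay on the same side in both round 1 pairs and mitosis did not. The difference between pairs was not tested.

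**Figure D4:**
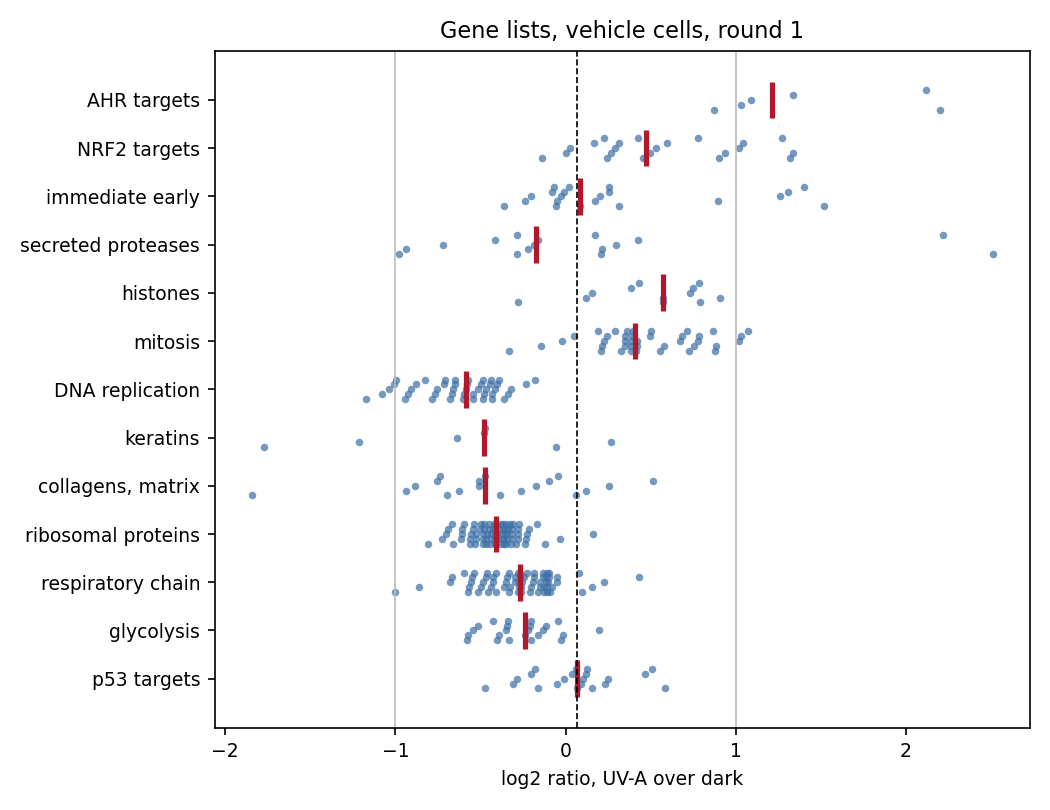
Log2 ratio of UV-A over dark (horizontal axis) in vehicle cells of round 1 for each member of 13 gene lists that passed the minimum (blue points), with the list median in red. The dashed line marks the median of all genes and the grey lines mark 2-fold: all replication genes lie left of 0 and nearly all mitosis genes right of it.

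Nuclear transcripts of cytosolic ribosomal proteins and of the respiratory chain were mostly lower, by less than 2-fold in all but 1 case. Of 79 cytosolic ribosomal protein genes 78 passed, 77 were below 0 and none was 2-fold lower (0.728% of all genes). The median was -0.41, with a range of -0.81 to 0.16. The summed level of all members was 18396 FPKM under UV-A and 24866 FPKM in the dark. RPS29 was the lowest, at 48.4 FPKM under UV-A and 84.8 FPKM in the dark. Of 69 nuclear genes of the respiratory chain 64 were below 0, with a median of -0.27 and values up to 0.43, and COX8A, a small subunit of cytochrome oxidase, was 2-fold lower on 69 reads under UV-A and 165 in the dark. Mitochondrially encoded mRNAs did not share this, with a median of 0.12 and 10 of 13 above 0, where 7311 of 12225 genes were. MT-ND5 stood at 728 FPKM under UV-A and 605 FPKM in the dark. In the 1-SO pair those 13 mRNAs had a median of -1.76 and all lay below 0.

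Glycolysis genes were lower in 22 of 23 cases, none by 2-fold (0.728% of all genes), with a median of -0.24. Lactate dehydrogenase LDHA stood at 344 FPKM under UV-A and 512 FPKM in the dark, and the lactate exporter SLC16A3 had a log2 ratio of -0.58. GAPDH, often used as a constant gene, stood at 622 FPKM under UV-A and 790 FPKM in the dark. The glucose carrier SLC2A3 was the exception at 0.19.

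Genes of the matrix and of the cytoskeleton of epithelia stood low. Of 19 collagen and matrix genes that passed 15 were below 0, with a median of -0.47, and COL6A3, a chain of collagen VI, was 2-fold lower and passed through the dark library alone, at 0.612 FPKM under UV-A and 2.2 FPKM in the dark. The basement membrane chains COL4A1 and COL4A2 had log2 ratios of -0.94 and -0.89. COL1A1 was on the other side at 0.51. Of 7 keratins that passed 6 were below 0 and 2 were 2-fold lower (0.728% of all genes), KRT81 and KRT7. KRT81, a hair keratin, stood at 17.4 FPKM under UV-A and 59.4 FPKM in the dark, a log2 ratio of -1.77, and shares sequence with KRT83 and KRT86. TGM2, a transglutaminase that crosslinks proteins, stood at 54.7 FPKM under UV-A and 151 FPKM in the dark, from 3459 and 11353 reads, a log2 ratio of -1.47. In round 2 it stood at 41.0 FPKM under UV-A and 42.0 FPKM in the dark. Targets and feedback genes of TGF-beta and BMP had a median of -0.26, and PMEPA1, a feedback inhibitor, was 2-fold lower at 8.01 FPKM under UV-A and 17.3 FPKM in the dark.

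Lists of p53 targets and of excision repair genes had medians near that of all genes. No list of double-strand break repair genes was made. The p53 target list had a median of 0.07 with 0 of 21 members 2-fold changed, where 1.72% of all genes were, a share at which 0 in a list of this size says little. CDKN1A, the p53-induced inhibitor of cyclin-dependent kinases, stood at 81.4 FPKM under UV-A and 78.2 FPKM in the dark. MDA-MB-231 is known to carry mutant p53. Nucleotide excision repair genes had a median of 0.04 with 0 of 19 changed, where DDB1 stood at 113 FPKM under UV-A and 110 FPKM in the dark, and base excision repair genes had -0.08 with 0 of 17 changed. Targets of ATF4, the factor of the integrated stress response, had a median of -0.01 in this pair and 1.5 in the 1-SO pair. Among them SLC7A11 was 2-fold higher and GDF15, a secreted stress hormone, had a log2 ratio of -0.62.

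Genes of the endoplasmic reticulum stress response had a median of 0.10 and those of cytosolic heat shock -0.04. Neither list had a member 2-fold changed, where 1.72% of all genes were. Interferon-stimulated genes had a median of 0.18, with 15 of 21 above 0, where 7311 of 12225 genes were. OASL, a member of the oligoadenylate synthetase family, was 2-fold lower on 27 reads under UV-A and 75 in the dark. MX1, an antiviral GTPase, had a log2 ratio of 1.00, just short of 2-fold. NF-kB targets and cytokines had a median of -0.01, with the growth factor CSF2 2-fold lower on 43 reads under UV-A and 104 in the dark.

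The remaining lists had medians within 0.25 of that of all genes, except metallothioneins and zinc export. That list differed from it by -0.27, with 4 members passing. Medians were 0.16 for feedback genes of the MAP kinases, 0.20 for ligands of the EGF receptor, -0.20 for metallothioneins and zinc export, -0.08 for sterol and fatty acid synthesis, -0.07 for hypoxia-type targets, -0.08 for YAP and TEAD targets, 0.12 for the clock and -0.02 for SR proteins and their kinases. No member of these 8 lists was 2-fold changed, where 1.72% of all genes were. At that share 0 in any 1 list of this size says little.

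Set beside the other pairs, the vehicle pair of round 1 was closer to the 1-SO pair of its round than to its own repeat. Across the 12225 genes, which are not independent replicates, the rank correlation of its log2 ratios was 0.53 with the 1-SO pair. With round 2 it was -0.16, over the 11954 genes that have a round 2 value. The 1-SO pair shares no library with the vehicle pair, but it shares the passage and the deposited gene table. Whether they shared plates or handling is not stated. In the 1-SO pair 5.57% of genes were 2-fold higher and 3.9% lower, and in round 2 0.709% were higher and 0.856% lower. Of the 24 higher protein-coding genes with at least 100 reads, 17 were 2-fold higher in the 1-SO pair and 1 in round 2. Of the 41 lower ones, 37 were 2-fold lower in the 1-SO pair and 1 in round 2.

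With the 4 vehicle libraries of both rounds in 1 paired fit, which has the round as a replicate block, edgeR's quasi-likelihood test called 0 of 11909 genes (0%), and 330 had an unadjusted p under 0.05. DESeq2 also called 0 and had 107 such genes. A limma fit on log2(FPKM + 1) called 11, 6 higher and 5 lower. MMP1 had a fitted log2 change of 1.22 ± 0.33 (SE) with an edgeR adjusted p of 0.81, and CYP1A1 had 1.10 ± 0.32 with an adjusted p of 0.84. NEGR1 had -0.92 ± 0.27 with an edgeR adjusted p of 0.82. With no FPKM minimum the same edgeR fit called 22 of 24471 genes, and 6 of the 8 genes that the authors' deposited table calls for round 1 were among them. That table and the fit share the round 1 libraries, so the overlap is no separate support. The edgeR adjusted p was then 1.01e-08 for MMP1, 8e-06 for GPC6, 0.000143 for CYP1B1, 0.000376 for NEGR1, 0.00244 for CYP1A1 and 0.0199 for FHIT, so these calls depend on the minimum. In round 2 alone the log2 ratios of these 6 genes lay between -0.25 for FHIT and 0.07 for CYP1A1, so their fitted changes rest on round 1. Each gene had 1 residual degree of freedom in the main edgeR fit. Its variance was drawn toward that of other genes, with 21.1 prior degrees of freedom. The p-values set the light ratio over both rounds against its spread from round to round. The rounds differ in passage and in their gene tables as well. The authors' deposited table for round 2 lists no gene at an adjusted p under 0.05.

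**Figure D5:**
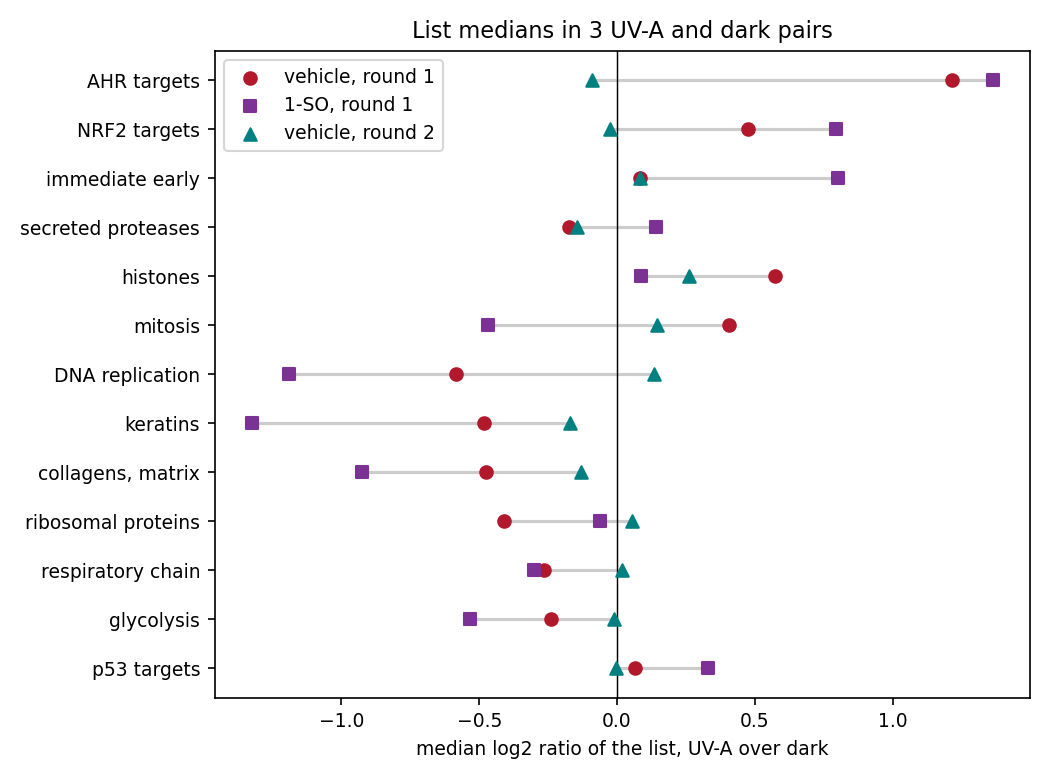
Median log2 ratio of UV-A over dark (horizontal axis) of 13 gene lists in the vehicle pair of round 1 (red circles), the 1-SO pair of round 1 (purple squares) and the vehicle pair of round 2 (teal triangles). The AHR list lies at 1.21, 1.36 and -0.09, and the mitosis list at 0.41, -0.47 and 0.15.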

How the data were processed

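RNA was measured in MDA-MB-231 cells, poly-A selected per the labels' protocols. Read counts per gene are whole numbers that the authors deposited, not normalized, and FPKM values are the authors' own, which equal count divided by gene length and library total when computed again. The authors' deposited tables also give log2 fold changes and p-values with adjusted p-values, by a method that the labels do not state. Among the tools in the submitters' processing notes are HTSeq 0.6.1 and STAR 2.5, edgeR 3.16.5, DESeq2, TopHat and STAR-Fusion, and hg38 and hg19 are the builds there, with no role or order. Coordinates of the round 1 table differ from GRCh38 and are printed as hg19. The strand setting of the counting is not stated, so a gene and its antisense partner cannot be told apart.

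Log2 ratios used reads as a share of the library total with 0.5 reads added, over genes with a mean of at least 1 FPKM in the pair. Intervals are exact conditional binomial ones (95%), for counting error alone. Reads that carry no molecular identifier can stem from 1 molecule, so the counting error can be larger than the interval. A count of 0 allows up to 3 reads. With 1 library a side no test was run on round 1 alone. The 4 vehicle libraries were fitted with edgeR 4.0.16 in R 4.3.3, round as replicate block, with DESeq2 1.42.0 and limma 3.58.1 as alternatives, Benjamini-Hochberg adjusted and called at 0.05. The labels give each vehicle pair its round and passage, and the deviations of same-round vehicle libraries correlated at 0.901. The interval code and the edgeR and DESeq2 fits were tested on simulated data, for the fits with changes shared by both rounds. The limma fit was not tested in this way. Named genes are the 12 highest and 12 lowest protein-coding genes past 2-fold with at least 100 reads, those with an adjusted p under 0.05 in the authors' deposited table, and in each list up to 4 members of largest ratio, with some further members of lists given as examples. The members and lists were chosen with earlier results of these data known. Tables of the rounds were made separately, so only ratios within a round are compared. A further 12 deposited tables were not used here, and values of some genes are not reported here. Ratios were computed in Python 3.11.15.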

Additional observations from a re-analysis of the deposited data

Results flagged for a closer look

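Medians of several lists lay on opposite sides of 0 in pairs that share no library, and the differences were not tested. Between round 1 and round 2 of vehicle cells these included AHR targets (1.21 and -0.091), NRF2 targets (0.47 and -0.025) and DNA replication (-0.59 and 0.14). They also included metallothioneins and zinc export (-0.20 and 0.10), cytosolic ribosomal proteins (-0.41 and 0.054) and nuclear respiratory chain subunits (-0.27 and 0.018). Lists nearer to the median of all genes in round 1 did so too, such as interferon-stimulated genes (0.18 and -0.15) and the clock (0.12 and -0.23). Between the vehicle and the 1-SO pair of round 1 they included mitosis (0.41 and -0.47) and mitochondrially encoded mRNAs (0.12 and -1.76). Among the genes that the authors' deposited table calls, log2 ratios lay on opposite sides in round 1 and round 2 for MMP1 (2.51 and -0.16), CYP1B1 (2.12 and -0.23) and IMMP2L (-2.76 and 0.48). Several of these round 2 values are near 0.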

How the results depend on the processing

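The count of 210 genes past 2-fold, 121 higher and 89 lower, depended on how weakly expressed genes were treated. It was 6014 (3379 higher, 2635 lower) with no FPKM minimum, 45 (20 and 25) at a mean of at least 5 FPKM, 62 (27 and 35) with at least 50 reads in each library, 75 (41 and 34) on the log2(FPKM + 1) scale, 86 (40 and 46) where the counting interval also lay beyond 1.5-fold, and 90 (44 and 46) for protein-coding genes alone, a setting chosen after seeing the data. The scalings by TMM and by median of ratios gave 216, with 103 higher and 113 lower, and 2 reads added gave 182. Between 13 and 14 lists lay at least 0.25 from the median of all genes under every setting tried. The median of genes spanning at least 500 kb, minus that of shorter genes, was -0.38, and was -0.042 at a mean of at least 5 FPKM. It lay between -0.49 and -0.29 under the other settings, all chosen after seeing the data. Over both rounds, edgeR with the replicate block called 0 genes, as it did with no replicate block, where 16 had an unadjusted p under 0.05. The limma fit called 11, and edgeR with no FPKM minimum called 22 of 24471, 8 higher and 14 lower, among them MMP1, CYP1A1, CYP1B1, GPC6, NEGR1 and FHIT, which had no call with the minimum. The cause was not tested. With either replicate left out, which leaves 1 round as values with no test, MMP1 ranged from -0.16 to 2.51, CYP1B1 from -0.23 to 2.12 and IMMP2L from -2.76 to 0.48, with the sign turned in round 2, against fitted changes over both rounds of 1.22, 0.93 and -0.69. Depth limits the weak genes: 45 of the 210 had a counting interval that reaches 0.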
